A study of Mus musculus with 4 samples.

Results

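The genes of the tumour necrosis factor (TNF) and interleukin-1 (IL-1) pathways examined here were Tnf, Il1a and Il1b (ligands), Tnfrsf1a, Tnfrsf1b, Il1r1 and Tlr4 (receptors), Il1rn (receptor antagonist), and Nfkbia and Tnfaip3 (inhibitors of NF-kB). They were chosen by symbol and are 10 of the 32285 features of the count tables, and each symbol matched 1 feature. Counts came from 4 spatial transcriptome sections of tibial muscle of Nse-Bmp4 mice, on a C57BL/6 background and 6 to 8 weeks of age. In these mice the neuron-specific enolase promoter drives a Bmp4 transgene, and muscle injured with cardiotoxin forms heterotopic bone. The day 0 section was from uninjured muscle, and the day 1, day 3 and day 7 sections were from muscle taken at those days post injury. All 4 groups carried the transgene, so a section of uninjured Nse-Bmp4 muscle was the control, and no wild-type section was used here. There was 1 section per day. The labels state that 3 tibial muscles were mixed for a group, and which of them lay on a section was not settled.

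TNF and IL-1 are cytokines that leukocytes release early after tissue damage. TNF binds the receptors encoded by Tnfrsf1a, found on most cells, and Tnfrsf1b, found mostly on leukocytes and endothelium, whereas IL-1 alpha and IL-1 beta share the receptor encoded by Il1r1, and Il1rn encodes an antagonist that occupies this receptor without signalling. Tlr4 senses bacterial and some endogenous molecules, and all these receptors lead to NF-kB, which in turn induces its own inhibitors Nfkbia and Tnfaip3. In injured muscle these cytokines are best known from neutrophils, monocytes and macrophages.

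The sections held 2107 to 3032 spots and 16777832 (day 1) to 56113066 (day 3) UMIs (unique molecular identifiers, each counting 1 captured RNA molecule), with a median of 6322 UMIs per spot at day 1 and 12119.5 to 21029 on the other days. A spot covers several cells, and spot positions were not used here. The 10 genes took 5541, 3297, 19254 and 8120 UMIs at days 0, 1, 3 and 7, or 126, 197, 343 and 194 CPM (UMIs scaled to the section's total). With 1 section per day the spread between animals is unknown, no p-value was computed, and each interval below is an exact 95% interval that covers counting error only. UMIs are counted at the 3' end of a transcript and were not divided by its length, so levels are compared between sections and not between genes. In whole sections, more cells of a type and more RNA per cell cannot be told apart.

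Adult myofibre genes took 242377, 131865, 79943 and 142129 CPM at days 0, 1, 3 and 7, and the summed monocyte/macrophage list took 421, 1562, 7889 and 2084 CPM. Of the 10 genes of the latter list, 8 were at least 2-fold higher at day 1 than at day 0, and all 10 at days 3 and 7. Of all genes tested, 17.3%, 32.5% and 32.3% were higher at days 1, 3 and 7. The neutrophil list took 0.661, 70.5, 57.3 and 11.7 CPM, but rested mostly on Csf3r and Clec4d, which monocytes also carry. The defining neutrophil gene Ly6g had 1 UMI in the day 1 section and 0 in the others, and the granule gene Ngp had 1 UMI at day 0 and 0 after injury. Of the other members, Cxcr2 had 2, 84, 57 and 4 UMIs, Mmp8 4, 55, 139 and 4, Trem1 1, 24, 93 and 1, and Retnlg 2, 11, 28 and 7. All 6 members with at least 20 UMIs over the 4 sections were at least 2-fold higher than day 0 at days 1 and 3. MSC (mesenchymal stromal cell) genes took 1099, 591, 1322 and 1643 CPM and endothelial genes 371, 214, 236 and 354. The part of cell makeup in the levels of the cytokine genes was not tested.

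Il1b showed the widest range among the 10 genes (chr2:129364569-129371164, build GRCm38.p6, as for all positions here). It had 1, 251, 1194 and 93 UMIs in the sections of days 0, 1, 3 and 7, which correspond to 0.0228, 15.0, 21.3 and 2.22 CPM. The uninjured section was thus nearly without Il1b RNA, days 1 and 3 were high, and day 7 was intermediate. The ratio to day 0 was 656 (117 to 26026) at day 1 and 934 (167 to 36903) at day 3, with intervals this wide because the denominator is 1 UMI. From day 3 to day 7 the level was lower by a ratio of 0.104 (0.0837 to 0.129). Il1a, the other IL-1 ligand, had 0, 0, 7 and 2 UMIs (chr2:129299609-129310186). The count of 0 at day 0 allows up to 0.0841 CPM, and Il1b had 171 UMIs for each Il1a UMI at day 3 (82.5 to 425). IL-1 ligand RNA in these sections was therefore counted almost wholly from Il1b.

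Tnf was scarce on every day (chr17:35199367-35202007). Its 5, 30, 66 and 7 UMIs at days 0, 1, 3 and 7 correspond to 0.114, 1.79, 1.18 and 0.167 CPM. Day 1 and day 3 lay above both other days without overlap of their intervals, whereas days 0 and 7 overlapped. Day 1 was 15.7-fold (6.03 to 51.8) and day 3 10.3-fold (4.21 to 32.8) above day 0, and day 7 stood at 1.47 (0.401 to 5.87) times day 0. That day 7 ratio changed direction with edgeR TMM factors in place of section totals, at a log2 ratio of -0.05 against 0.55.

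Il1rn, the receptor antagonist, followed Il1b on the day scale but in different proportions (chr2:24336860-24351491). It had 1, 84, 662 and 99 UMIs, or 0.0228, 5.01, 11.8 and 2.37 CPM. Its ratio to day 0 was 220 (38.4 to 8778) at day 1 and 518 (92.6 to 20474) at day 3. Between days 3 and 7 Il1rn was lower by a ratio of 0.201 (0.161 to 0.248), a smaller difference than that of Il1b, as the intervals do not overlap. For each Il1rn UMI the day 1 section held 2.99 Il1b UMIs (2.33 to 3.87), the day 3 section 1.80 (1.64 to 1.99) and the day 7 section 0.939 (0.700 to 1.26). The antagonist thus made up a growing part of the pair from section to section. Both genes are counted with the same section total, so these proportions do not depend on the scaling.

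**Figure D1:**
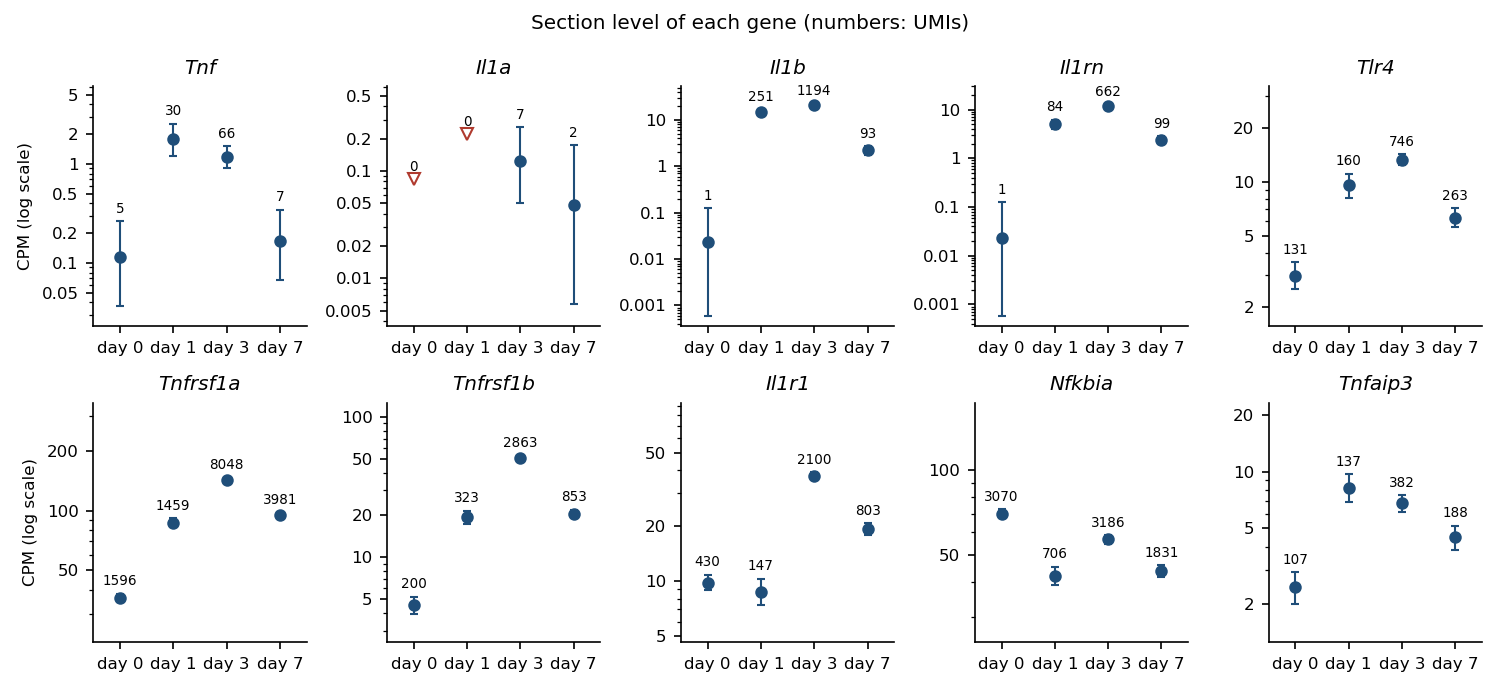
CPM of each of the 10 genes (log axes, each panel with its own range) in the 4 sections, with exact 95% Poisson intervals and the UMI count above each point; open triangles mark the upper limit where the count was 0. Il1b and Il1rn each went from 1 UMI at day 0 to 1194 and 662 UMIs at day 3, whereas Nfkbia stood highest at day 0.

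Among the receptors, Tnfrsf1b had the largest difference from day 0 (chr4:145212368-145246870). Its 200, 323, 2863 and 853 UMIs correspond to 4.56, 19.3, 51.0 and 20.4 CPM, so that day 0 was lowest, day 3 highest, and days 1 and 7 were alike within their intervals. The ratio to day 0 was 4.22 (3.53 to 5.06), 11.2 (9.69 to 13.0) and 4.47 (3.83 to 5.24) at days 1, 3 and 7. Tnfrsf1a, the widely expressed TNF receptor, had 1596, 1459, 8048 and 3981 UMIs, or 36.4, 87.0, 143 and 95.2 CPM (chr6:125349723-125362483). Its order across days was the same as that of Tnfrsf1b, with smaller ratios of 2.39 (2.23 to 2.57), 3.94 (3.74 to 4.16) and 2.62 (2.47 to 2.77). The count of Tnfrsf1b for each Tnfrsf1a UMI was 0.125, 0.221, 0.356 and 0.214 across the 4 days, so the 2 receptors of TNF did not move in parallel. Per 1000 UMIs of the monocyte/macrophage list, Tnfrsf1b had 10.8, 12.3, 6.47 and 9.78 UMIs, with the day 3 interval (6.23 to 6.71) below those of the other days, and Il1b had 0.0541, 9.58, 2.70 and 1.07.

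Il1r1, the signalling IL-1 receptor, did not move with its ligand at day 1 (chr1:40222480-40316201). Its UMIs were 430, 147, 2100 and 803, or 9.80, 8.76, 37.4 and 19.2 CPM. Days 0 and 1 overlapped, with a ratio of 0.894 (0.736 to 1.08), and day 3 was 3.82-fold (3.44 to 4.25) above day 0. The count of Il1b for each Il1r1 UMI was accordingly highest at day 1, at 1.71 (1.39 to 2.11), and stood at 0.569 and 0.116 on the later days. Il1r2, which encodes a decoy receptor of IL-1, had 29, 106, 297 and 58 UMIs and was 9.56-fold (6.29 to 15.0) above day 0 at day 1. For each Il1r1 UMI there were 0.0674, 0.721, 0.141 and 0.0722 Il1r2 UMIs on the 4 days in turn. The day 1 proportion (0.556 to 0.932) lay above those of the other days, and the day 7 proportion overlapped with that of day 0. The IL-1 co-receptor gene Il1rap stayed between 2.69 and 4.05 CPM.

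Tlr4 had 131, 160, 746 and 263 UMIs, or 2.99, 9.54, 13.3 and 6.29 CPM (chr4:66827551-66846581). It was above day 0 on all 3 later days, by 3.19-, 4.45- and 2.11-fold. Among its partners, the co-receptor gene Cd14 differed from day 0 by 3.66-fold (3.00 to 4.47) at day 1 and 13.3-fold (11.4 to 15.6) at day 3. Of the endogenous ligands, S100a8 and S100a9, which neutrophils and monocytes carry, were highest at day 1, at 58.8 and 58.4 CPM against 0.524 and 0.501 at day 0.

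The NF-kB inhibitors Nfkbia and Tnfaip3 went opposite ways. Nfkbia, which encodes I-kappa-B alpha, had 3070, 706, 3186 and 1831 UMIs, or 70.0, 42.1, 56.8 and 43.8 CPM (chr12:55489409-55492647), and was the only 1 of the 10 genes below day 0 at each of days 1, 3 and 7 (ratios of 0.601, 0.811 and 0.625). Tnfaip3, which encodes the ubiquitin-editing protein A20, had 107, 137, 382 and 188 UMIs, or 2.44, 8.17, 6.81 and 4.49 CPM (chr10:19000910-19015410), and stood at 3.35 (2.58 to 4.35), 2.79 and 1.84 times day 0. There were 0.0349 Tnfaip3 UMIs for each Nfkbia UMI at day 0 and 0.194 at day 1. The 250 bases before the start of both genes are shown because both are known NF-kB targets while their section levels differed in direction. They are RefSeq sequences of GRCm38.p6 on the minus strand, 5' to 3', with capitals marking matches to the NF-kB motif on either strand.
Nfkbia (chr12:55492648-55492897): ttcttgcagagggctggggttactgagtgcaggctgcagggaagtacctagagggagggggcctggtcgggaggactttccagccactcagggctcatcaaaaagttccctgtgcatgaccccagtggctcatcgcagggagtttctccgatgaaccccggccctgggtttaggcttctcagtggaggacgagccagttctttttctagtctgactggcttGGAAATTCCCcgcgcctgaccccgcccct
Tnfaip3 (chr10:19015411-19015660): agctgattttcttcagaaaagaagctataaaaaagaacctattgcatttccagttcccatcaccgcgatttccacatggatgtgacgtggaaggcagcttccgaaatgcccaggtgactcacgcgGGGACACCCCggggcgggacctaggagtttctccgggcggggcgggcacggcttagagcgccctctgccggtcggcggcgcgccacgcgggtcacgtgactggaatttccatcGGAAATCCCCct
The Nfkbia window held 1 match, centred 24 bases before the start, and the Tnfaip3 window held 2, at 120 and 7 bases. Of 32851 promoter windows of this length, 7.25% held the motif and 1.03% held it at least 2 times. Windows were given for 9 of the 10 genes, not for Tlr4. A match was present for Nfkbia and, in 1 window of each, for Tnfaip3 and Il1r1. Of 27025 genes, 8.23% had a match in at least 1 window. A match describes letters only and is not a site, and no match in a window says nothing of the factor.

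Counted together, 9 of the 10 genes had at least 20 UMIs over the 4 sections and were compared, with Il1a left out. At day 1 against day 0, 7 of 9 were at least 2-fold higher and 0 were lower, beside 17.3% higher and 10.6% lower of all 16094 genes tested. The day 3 section had 8 higher and 0 lower, beside 32.5% and 8.19% of all genes, and the day 7 section 5 higher and 0 lower, beside 32.3% and 1.91%. Between consecutive sections, 3 genes (Il1r1, Tnfrsf1b and Il1rn) were higher at day 3 than at day 1 and 0 lower, beside 17.8% and 3.09%. At day 7 against day 3, 0 were higher and 5 lower (Il1b, Tnf, Il1rn, Tnfrsf1b and Tlr4), beside 15.5% and 11.2%. The median log2 ratio of all genes to day 0 was 0.16, 0.57 and 0.65 at days 1, 3 and 7, and TMM factors shifted each ratio by -0.21, -0.55 and -0.61. With these factors the shares of all genes higher and lower were 13.5% and 14.2% for the first of these days, 19.6% and 16.4% for the next, 15.1% and 6.28% for the last, and 10.6% and 5.76% for day 3 against day 1. Under TMM factors Tnfaip3 at day 3 (log2 ratio 0.93), Tnfrsf1a (0.78) and Tlr4 (0.47) at day 7, and Il1rn at day 3 against day 1 (0.90) no longer reached a 2-fold difference, whereas Nfkbia became lower at day 7 (-1.28) and Il1r1 lower at day 7 against day 3 (-1.02).

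Other genes of the pathway were taken from 7 lists of 98 genes, of which 96 were among the features and 94 were tested. At day 1, 50 of the 94 were at least 2-fold higher than at day 0 and 3 lower. The same counts were 69 and 0 for day 3, then 51 and 0 for day 7, beside 17.3%, 32.5% and 32.3% of all genes higher on these days. With TMM factors the day 7 counts were 30 higher and 2 lower, beside 15.1% and 6.28% of all genes. At day 3 with these factors 2 were lower, beside 16.4% of all genes. Against day 3, the day 7 section had 3 higher and 34 lower, beside 15.5% and 11.2% of all genes.

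In the IL-1 family and its processing enzymes, 9 of 14 genes tested were higher at day 1 and 11 at day 3, with a median log2 ratio of 1.69 and 2.93. Of all genes, 17.3% and 32.5% were higher on these days. Il18rap, a subunit of the IL-18 receptor, and Nlrp3, an inflammasome sensor that can lead to release of IL-1 beta, led on both days. They had 5, 68, 249 and 31 UMIs and 2, 19, 107 and 10 UMIs, in turn, across the 4 sections. Il33, an alarmin released from damaged cells, was at 0.946 times day 0 at day 1 and 8.45-fold higher at day 3, and its receptor gene Il1rl1 had the reverse order, 14.4-fold higher at day 1 and 1.45 times day 0 at day 3 (a log2 ratio of -0.01 with TMM factors). The inhibitory receptor gene Sigirr was lowest of the list at day 1, at 0.643 times day 0.

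In the list of TNF shedding and related TNF family genes, 4 of 10 were higher at day 1, 8 at day 3 and 3 at day 7. Tnfsf14 (LIGHT) had 1, 17, 143 and 4 UMIs and Ltb (lymphotoxin beta) 15, 44, 91 and 48. Adam17, which encodes the protease that sheds TNF and its receptors, stood at 1.03 times day 0 at day 1, a log2 ratio of -0.17 with TMM factors, and 2.17 at day 3. Timp3, which encodes its inhibitor, was lowest of the list at both times, at 0.686 and 0.517 times day 0, and was 2.51-fold higher at day 7 than at day 3. Tnfrsf12a, the receptor of TWEAK, was at 98.0, 247, 260 and 62.4 CPM.

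In the TLR4 complex list 5, 7 and 5 of 7 genes were higher at days 1, 3 and 7, beside 17.3%, 32.5% and 32.3% of all genes. Adaptors and kinases moved less, with 10, 16 and 9 of 31 higher and 0 lower, and at day 7 their share was near that of all genes. Myd88, the adaptor shared by IL-1 and Toll-like receptors, had 7.82, 33.6, 55.6 and 25.4 CPM, and Traf1, an NF-kB-induced adaptor of TNF receptors, had 1.07, 4.11, 13.4 and 5.67. Tab1 at day 1 and Tirap at day 3 were lowest in this list, at 0.844 and 0.977 times day 0.

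Of the 5 NF-kB subunits 3, 5 and 3 were higher, led by Nfkb2 (3.21-, 6.37- and 2.47-fold) and Relb (3.08-, 3.49- and 2.17-fold), which form the noncanonical dimer. Of 12 inhibitors and feedback genes 10, 10 and 9 were higher, and Socs3, a suppressor of cytokine signalling, stood at 3.37, 29.7, 102 and 36.0 CPM. For both lists, the shares of all genes higher were 17.3%, 32.5% and 32.3% at days 1, 3 and 7. Nfkbia differed in direction from most of that list, for example Nfkbib at 2.22-fold and Bcl3 at 2.55-fold at day 1.

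The inducible targets did not all move together. Of 15 tested, 9 were higher and 3 lower at day 1, 12 and 0 at day 3, and 11 and 0 at day 7. The shares of all genes higher and lower were 17.3% and 10.6%, 32.5% and 8.19%, and 32.3% and 1.91% on these days. The monocyte chemokine gene Ccl2 had 42, 2465, 8481 and 510 UMIs, and the neutrophil chemokine gene Cxcl2 4, 22, 63 and 5. Tnfaip2, a TNF-induced gene, was instead 0.261 times day 0 at day 1 and 1.31 at day 3, where the direction turned with TMM factors (log2 ratio -0.16). Il6 had its level almost wholly at day 3, with 1, 9, 226 and 15 UMIs. Between days 3 and 7, 5 of the 15 targets were at least 2-fold lower (Ccl2, Il6, Cxcl2, Cxcl1 and Csf3) and 2 higher (Ptgs2 and Mmp9). Of all genes 11.2% were lower and 15.5% higher, so the share of targets that were higher was near that of all genes. Ptgs2, the inducible prostaglandin synthase COX-2, had 6, 8, 102 and 971 UMIs, and was 12.8-fold (10.4 to 15.8) higher at day 7 than at day 3.

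**Figure D2:**
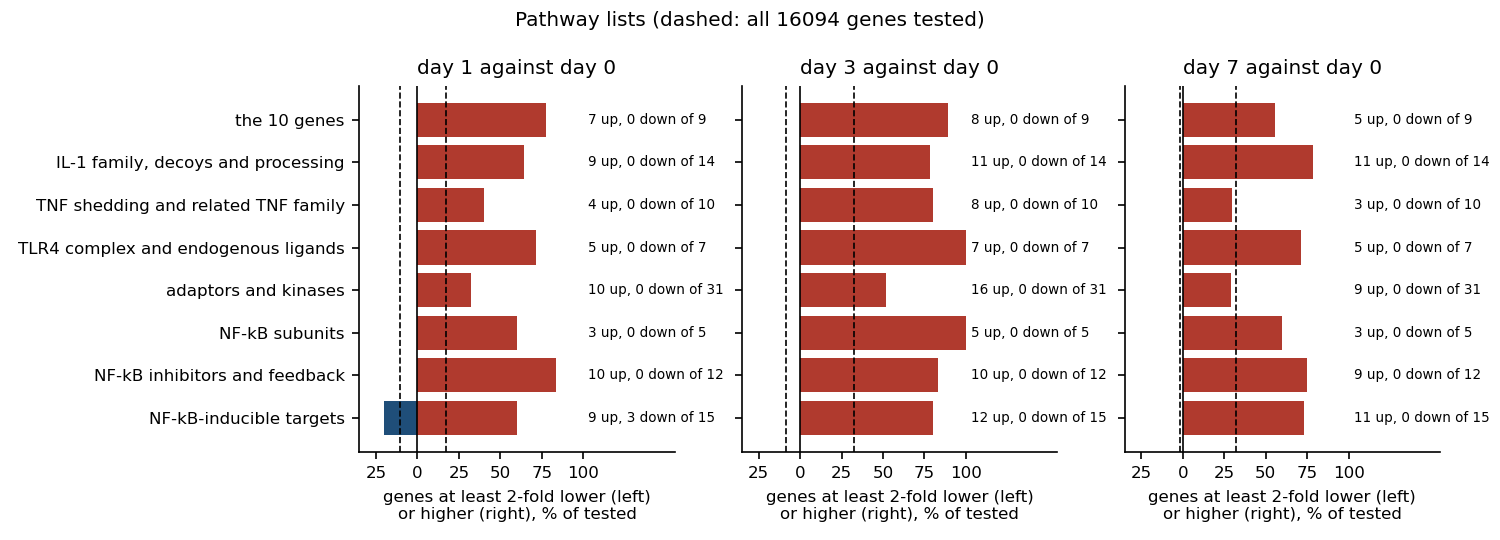
Percent of tested genes of each list that were at least 2-fold higher (red, right) or lower (blue, left) than day 0, in 3 panels for days 1, 3 and 7; dashed lines give the same percents over all 16094 genes. At day 7 the TNF family list (3 of 10) and the adaptors and kinases (9 of 31) lay near the dashed line at 32.3%.

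Spots differ in depth, so shares of spots with a UMI were taken after thinning each spot to 2000 UMIs, which left out 17, 513, 9 and 84 spots. Il1b was found in 0.00957%, 3.05%, 3.27% and 0.370% of spots at days 0, 1, 3 and 7 (0.0475%, 7.84%, 24.2% and 2.47% without thinning). At equal depth the shares at days 1 and 3 thus overlapped (2.38% to 3.88% and 2.67% to 3.98%), although the unthinned shares differ widely. Il1rn was in 1.14% and 2.16% of spots at days 1 and 3 (2.85% and 13.6% unthinned), and Il1r1 in 1.78% and 6.79% (5.10% and 40.7%). Tnf did not exceed 0.422% on any day (2.08% unthinned). Tnfrsf1a was in 6.91%, 16.2%, 23.0% and 16.1% of thinned spots (45.8%, 36.6%, 78.2% and 57.3%), and Nfkbia in 13.0%, 9.38%, 10.1% and 8.65% (67.9%, 21.4%, 53.5% and 39.0%). RNA that spread from neighbouring spots was not tested for.

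How often ligand and receptor RNA met in a spot depended on depth. With all UMIs, Il1b and Il1r1 shared 9 spots at day 1 and 423 at day 3, where 57.8% of spots with Il1b also held Il1r1, beside 35.3% of spots without it. Deeper spots hold more of both genes, and the observed count was 0.844 and 1.42 times the product of the separate shares on these days. After thinning few shared spots were left. At day 1, Il1b and Il1r1 shared 0.550 spots on average over 20 draws, which is 0.471 (0 to 1.55 over draws) of the product of their separate shares, and at day 3 they shared 8.55 spots, or 1.28 (0.465 to 2.07). Il1b and its antagonist Il1rn shared 3.25 spots at day 1, or 4.33 (2.29 to 7.46) of the product, and 3.75 at day 3, or 1.76 (0.463 to 4.39). The thinned pairs rest on under 10 spots and give no firm order. Tnf was found with Tnfrsf1b in 46 of its 63 spots at day 3 with all UMIs, or 73.0%, beside 46.4% of spots without Tnf. At day 1 with all UMIs this pair shared 9 of the 29 spots with Tnf, or 31.0%, beside 10.7% of spots without Tnf. After thinning it shared 1.55 spots on average at day 1, or 4.13 (0 to 10.3 over draws) of the product. The thinned day 3 values were 0.700 spots and 1.38 (0 to 4.77). The contrast was thus not resolved at equal depth on either day. Across spots of 1 section no gene had a Pearson's r above 0.127 with the 4 members abundant enough for it (Tnfrsf1a, Tnfrsf1b, Il1r1 and Nfkbia), with Hp, Actb, Pf4 and Adgre5 first in turn, which is too weak to be read as a likeness.

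Summed spots gave more counts. In each section the 10% of spots (among those of at least 2000 UMIs) with the highest share of a marker list was set against the other spots. The monocyte/macrophage, neutrophil, adult myofibre and MSC lists share no gene with the 10 studied here. Many spots lie near the border of such a class: 76 spots at day 1 and 189 at day 3 lay within 10% of the monocyte/macrophage border. At day 1 the rich spots of the monocyte/macrophage and neutrophil lists were shallower than the others (medians of 4593 and 3766 UMIs against 7718 and 7799), and both had low myofibre medians (55017 and 64937 CPM against 136927 and 136260). They also overlap in content, as neutrophil-list-rich spots had a median of 3034 CPM of the monocyte/macrophage list against 1030 elsewhere. The neutrophil class could not be formed at day 0, where 24 spots had any UMI of the list.

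Il1rn, Tnf, Tnfrsf1b and Il1b had the highest ratios of the 10 genes in monocyte/macrophage-rich spots at day 1. In monocyte/macrophage-rich spots Il1b had 39.5 CPM against 11.8 in the others, a ratio of 3.35 (2.37 to 4.64). Il1rn had 24.4 against 2.85 CPM, a ratio of 8.55 (5.15 to 14.0) that does not overlap with that of Il1b. Tnf (9 against 17 UMIs) had a ratio of 6.71 (2.64 to 15.9), and Tnfrsf1b one of 3.83 (2.86 to 5.08). Spots rich in the neutrophil list gave 3.93 (2.78 to 5.46) for Il1b and 7.65 (4.48 to 12.7) for Il1rn. Within monocyte/macrophage-rich spots there were 1.62 Il1b UMIs for each Il1rn UMI (0.999 to 2.67), against 4.14 (2.95 to 5.92) in the other spots. So at day 1 Il1rn was more concentrated in monocyte/macrophage-rich spots than Il1b was.

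Il1r1 had its highest ratios in another class. It was most enriched in MSC-rich spots, with 29.0 against 6.70 CPM at day 1, a ratio of 4.32 (2.91 to 6.32), then 2.01 (1.78 to 2.27) at day 3 and 3.49 (2.96 to 4.10) at day 7. Endothelial-rich spots were also above the section level of Il1r1, with 18.5, 55.2 and 42.8 CPM at days 1, 3 and 7. So were monocyte/macrophage-rich spots, with 14.3, 53.6 and 33.5 CPM, and neutrophil-list-rich spots, with 15.0, 59.7 and 27.6 CPM. In MSC-rich spots Il1b did not differ from the other spots at days 1 and 3, with ratios of 1.14 (0.691 to 1.79) and 0.918 (0.731 to 1.14). MSC-rich spots accordingly held 0.538 Il1b UMIs for each Il1r1 UMI at day 1 (0.301 to 0.938), against 2.76 (1.56 to 5.14) in monocyte/macrophage-rich spots. Tnfrsf1a had ratios of 2.10 (1.81 to 2.43), 1.56 (1.46 to 1.67) and 2.08 (1.91 to 2.26) in MSC-rich spots on days 1, 3 and 7, beside 1.82 (1.54 to 2.13), 1.34 (1.27 to 1.42) and 1.68 (1.56 to 1.81) in monocyte/macrophage-rich spots. Of these classes Il1b and Il1r1 thus had their highest day 1 ratios in different ones. At day 3 the MSC-rich ratio of Il1b depended on the border, and was 1.2 with the richest 20% of spots.

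Spots rich in adult myofibre RNA were low for nearly all the genes. Tnf had 0 UMIs in them at days 1, 3 and 7, and Il1b had 9, 9 and 5 UMIs, with ratios of 0.341 (0.154 to 0.660), 0.138 (0.0630 to 0.263) and 0.622 (0.197 to 1.51). Of the 9 genes with at least 20 UMIs, Tnfrsf1a came nearest to an even spread at day 1, at 0.793 (0.653 to 0.955).

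**Figure D3:**
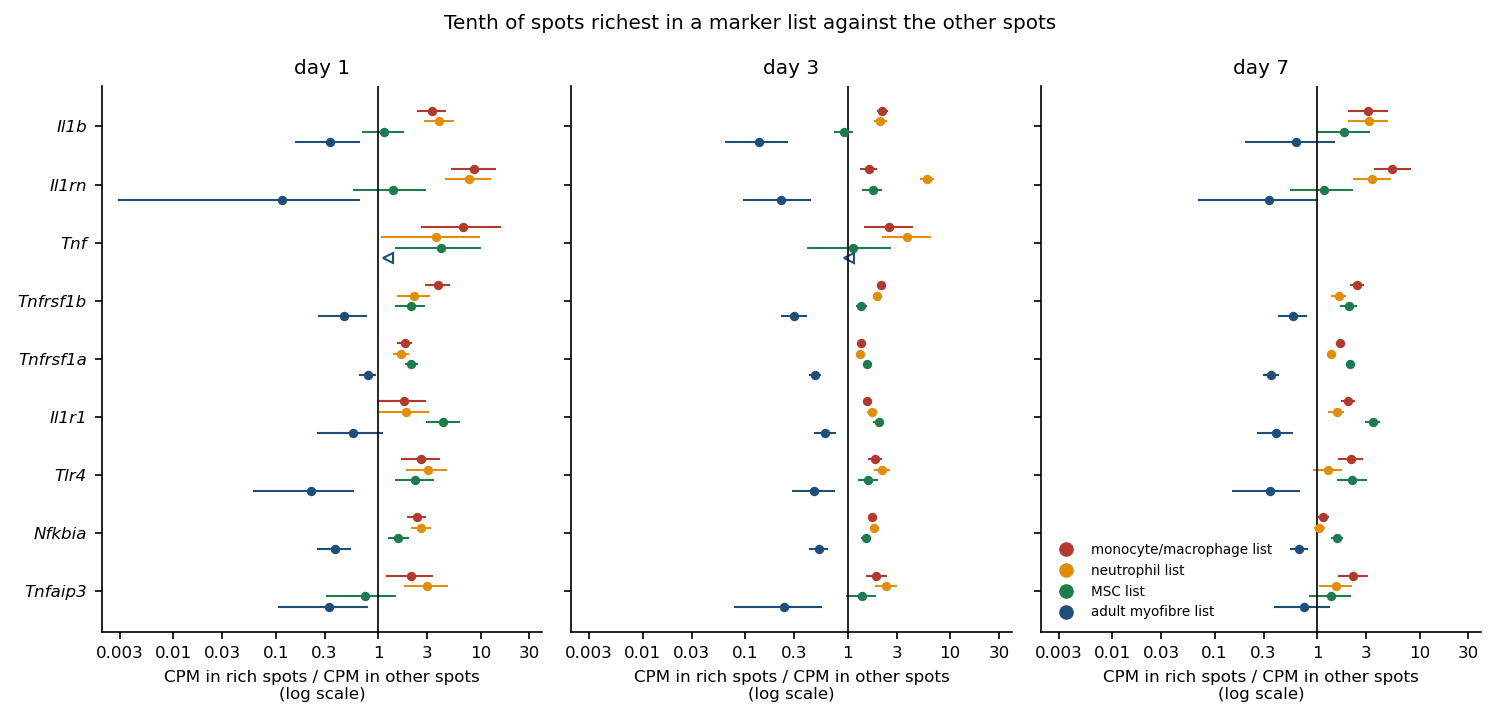
Ratio of CPM in the 10% of spots richest in a marker list to CPM in the other spots (log axis), for 9 genes at days 1, 3 and 7, with exact 95% intervals; left-pointing triangles are upper limits where the rich spots had 0 UMIs, and genes with under 20 UMIs in the spots of a day are left out. At day 1 Il1b and Il1rn are highest in neutrophil and monocyte/macrophage list spots and Il1r1 in MSC list spots, and points of the adult myofibre list lie below 1.

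At day 3 the order of Il1rn and Il1b in monocyte/macrophage-rich spots was turned at the border of 10%. There were 2.27 Il1b UMIs for each Il1rn UMI (1.87 to 2.77) against 1.66 (1.49 to 1.86) in the other spots. Spots rich in the neutrophil list had 45.8 CPM of Il1rn against 7.64 in the others, a ratio of 5.99 (5.11 to 7.01), whereas those rich in the monocyte/macrophage list gave 1.61 (1.33 to 1.93), or 3.23 with the richest 20% of spots. Il1b had similar ratios in both, 2.09 (1.81 to 2.41) and 2.19 (1.93 to 2.49). All spots of at least 2000 UMIs were also split into 10 groups of equal size by their share of the monocyte/macrophage list, from group 1 (lowest) to group 10. At day 3 Il1b went from 3.02 CPM in group 1 to 31.5 in group 9 and 39.4 in group 10. Il1rn went from 1.10 CPM in group 1 to 30.4 (26.5 to 34.7) in group 9 and was lower again, at 17.3 (14.7 to 20.3), in group 10. Group 9 held 230 Il1b and 222 Il1rn UMIs, and group 10 held 343 and 151. The turned order thus rested on group 10 and depended on the border. At day 1 group 10 was the highest for Il1rn, at 24.4 CPM against 7.46 in group 9.

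Spots rich in regenerating muscle genes (Myod1, Myog and others) at day 3 were high for Il1b, with a ratio of 1.88 (1.65 to 2.15), and low for Il1rn, at 0.599 (0.458 to 0.772), with 4.66 Il1b UMIs for each Il1rn UMI. At day 7 this was turned around. Il1rn had 6.11 CPM against 1.53 elsewhere (interval of the ratio 2.64 to 6.05), the ratio of Il1b was 0.990 (0.548 to 1.69), and there were 0.362 Il1b UMIs for each Il1rn UMI (0.195 to 0.642) against 1.46 in the other spots. The monocyte/macrophage list had a median of 8525 CPM in these spots at day 3 and 2508 at day 7, against 3808 and 1201 elsewhere. In cartilage-rich spots at day 7, where the list median was 8457 CPM, Il1b (9 UMIs) and Il1r1 did not differ from the other spots, at 0.994 (0.440 to 1.98) and 1.00 (0.781 to 1.26), Tnfrsf1a was at 1.35 (1.23 to 1.48) and Tnfrsf1b at 0.744 (0.566 to 0.962). Adult myofibre genes had a median of 53991 CPM in the cartilage-rich spots against 166313 elsewhere, so these ratios compare totals with unlike parts of muscle RNA.

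**Figure D4:**
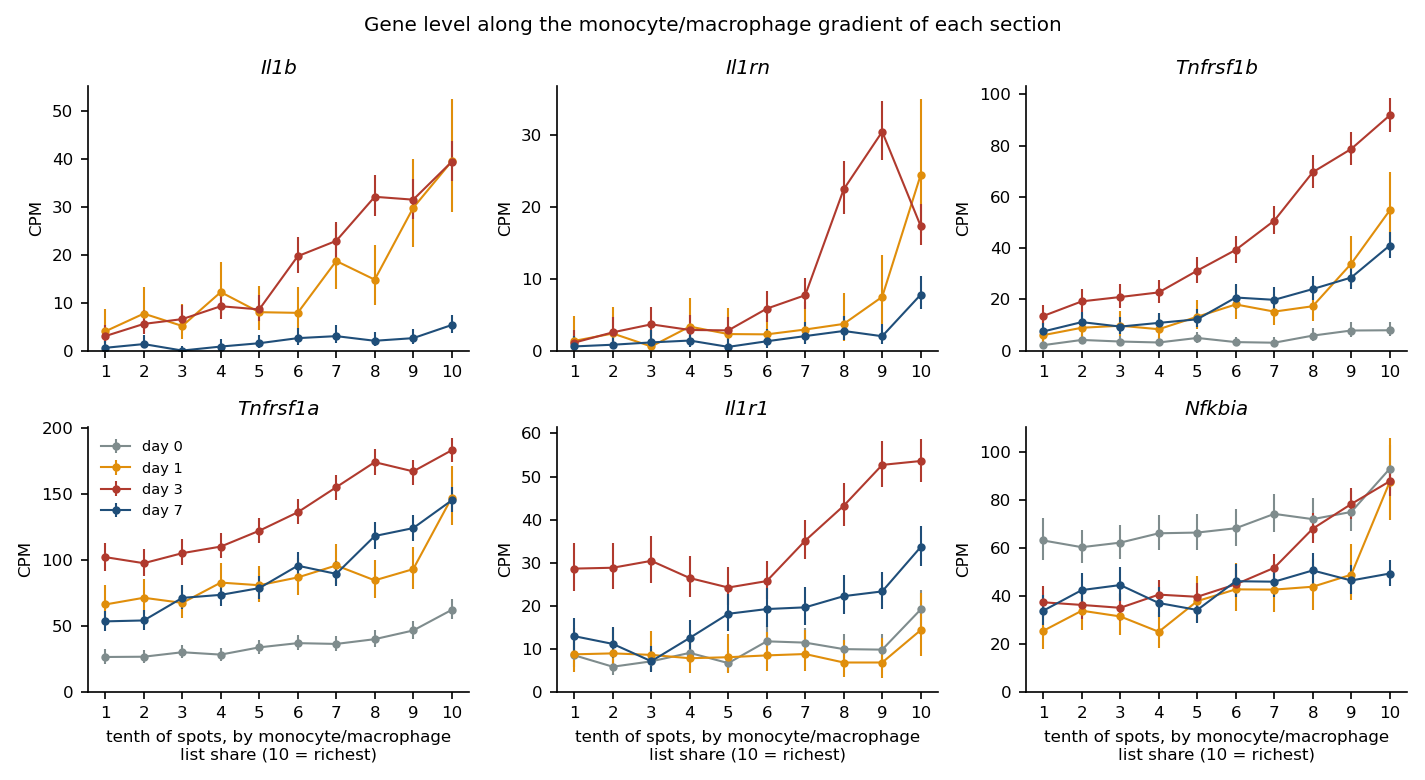
CPM of 6 genes in 10 groups of spots ordered by the share of monocyte/macrophage list UMIs (10 is richest), a line per day, with exact 95% Poisson intervals; day 0 is left out where a gene had under 20 UMIs. Il1rn at day 3 was highest in group 9 (30.4 CPM) and 17.3 CPM in group 10, while Il1b and Tnfrsf1b were highest in group 10.

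The lower section level of Nfkbia was not shared by all spots. In myofibre-rich spots it had 50.4 CPM at day 0 and 16.4 at day 1, a ratio of 0.325 (0.212 to 0.481). In monocyte/macrophage-rich spots the levels were 93.0 and 87.5 CPM, with a ratio of 0.940 (0.750 to 1.17), and on day 3 it was 87.8 CPM, or 0.944 (0.835 to 1.07). Endothelial-rich spots lay between, at 0.753 (0.595 to 0.945) at day 1. Hence the contrast within the section widened from day 0 to day 1, as monocyte/macrophage-rich spots exceeded the other spots by 1.38-fold at day 0 and by 2.38-fold (1.91 to 2.94) at day 1. At day 7 the monocyte/macrophage-rich spots were also low, at 49.2 CPM or 0.529 (0.454 to 0.615) of day 0, and differed from the other spots by 1.15 (1.02 to 1.30) only, a ratio that turned to 0.986 with totals that omit muscle, mitochondrial and haemoglobin genes.

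Tnfrsf1a, in contrast, was above day 0 in each of 4 classes of spots. Its ratio at day 1 was 3.15 (2.38 to 4.17) in myofibre-rich spots, 2.37 (1.95 to 2.88) in monocyte/macrophage-rich spots, 2.43 (2.02 to 2.92) in MSC-rich spots and 2.23 (1.85 to 2.69) in endothelial-rich spots, with overlapping intervals. Il1r1 at day 1 was at 1.67 (1.10 to 2.51) times day 0 in MSC-rich spots, beside 0.748 (0.416 to 1.27) in monocyte/macrophage-rich, 1.03 (0.623 to 1.64) in endothelial-rich and 0.756 (0.314 to 1.65) in myofibre-rich spots, with overlapping intervals. At day 3 it was above day 0 in all 4 classes, by 2.80- to 4.01-fold. Rich spots of different days are not the same kind of tissue, since each class is 10% of the spots of its own section: the monocyte/macrophage border was at 948 CPM at day 0 and 14595 CPM at day 3.

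**Figure D5:**
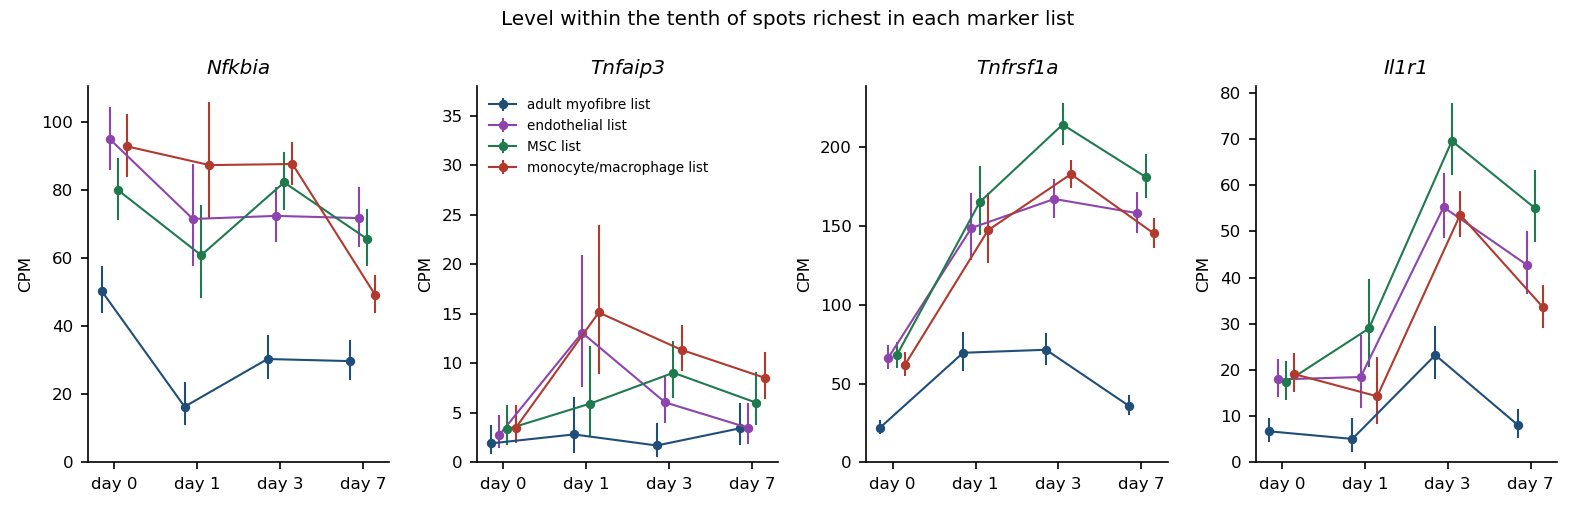
CPM of 4 genes within the 10% of spots richest in each of 4 marker lists (coloured lines, slightly offset), by day, with exact 95% Poisson intervals. Nfkbia in myofibre list spots went from 50.4 to 16.4 CPM between days 0 and 1 while it was 93.0 and 87.5 CPM in monocyte/macrophage list spots.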

How the data were processed

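Spatial transcriptomes were taken from 1 fresh frozen section per day. The authors deposited raw UMI counts per gene and spot. The table headers name Space Ranger 1.2.0, the labels' protocol and the study's methods name other versions, and the labels give build mm10. The deposited barcodes and feature names carry no measurement, and all 10835 spots were kept for section sums. Samples were grouped by the day in their titles. Raw counts were summed per section and divided by the section total (CPM), with exact Poisson intervals at 95%. Ratios have conditional binomial intervals. A gene was compared if it had at least 20 UMIs over the 4 sections and called if its CPM differed at least 2-fold and the higher section had more than 3 UMIs. Shares of spots came from 20 draws of 2000 UMIs per spot, with Clopper-Pearson intervals at 95%. Intervals cover counting error only. No doublets were called, since a spot covers more than a cell. Spot barcodes are shared between sections (1539 to 2311 for a pair), as they name array positions.

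The labels' protocol also mentions downsampling of reads, which could lower depth, and whether it was applied to these sections is not given in the sources used here. Where a section had 1 or 2 UMIs the ratio is printed with its interval, in place of the bound at 3 UMIs that was planned.

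Members and lists were chosen with earlier results of these data known. Named genes are all 10 members, in each pathway list the 2 highest and the lowest ratio of each comparison (not all are printed), genes of pairs, the genes of highest correlation, and leading marker genes. Il1r2, Il1rl1, Il33, Adam17 and Bcl3 at some days fall outside this rule and were named after their values were seen. The split of spots into 10 ordered groups and the comparison of a class between days were added after seeing the data.

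Alternatives were TMM factors, DESeq2 size factors, totals without mitochondrial, haemoglobin and adult myofibre genes, spots of at least 1000 UMIs, folds of 1.5 and 3, no filter, other thinning depths, and other borders of rich spots. No count model was fitted, as a day has 1 section. The calculations were tested on simulated data. Promoters were searched in RefSeq sequence of GRCm38.p6. Scaling factors came from edgeR 4.0.16 and DESeq2 1.42.0 under R 4.3.3. All else was computed in Python 3.11.15 with SciPy 1.17.1, NumPy 2.4.6 and pandas 2.3.3, and plots were drawn in matplotlib 3.10.9.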

Additional observations from a re-analysis of the deposited data

How the results depend on the processing

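No paired analysis was possible because each day has 1 section. With TMM factors the members at least 2-fold higher at day 7 against day 0 numbered 3 and those lower 1, and DESeq2 size factors gave the same 3 and 1. The shares of all genes higher and lower were then 15.1% and 6.28% with TMM factors and 14.7% and 6.64% with DESeq2 size factors. Both scalings gave 30 pathway genes higher and 2 lower at day 7 against day 0, 2 lower at day 3 against day 0, and 18 higher at day 3 against day 1. With TMM and DESeq2 factors, 16.4% and 16.5% of all genes were lower at day 3 against day 0. At day 3 against day 1, 10.6% and 10.3% of all genes were higher. Totals without mitochondrial, haemoglobin and adult myofibre genes also gave 2 pathway genes lower at day 3, beside 13.2% of all genes. A fold of 1.5 gave 1 member lower at day 1 and at day 7 against day 0, 1 lower at day 3 against day 1, and 8 lower at day 7 against day 3. A fold of 3 gave 3 members higher at day 7 against day 0, 1 higher at day 3 against day 1, and 3 lower at day 7 against day 3. Shares of all genes at folds of 1.5 and 3 were not computed, so these counts cannot be set against all genes. The other 90 counts of members and pathway genes stayed within 1.5 times of the reported count. Restricting to spots of at least 1000 UMIs moved 0 of 20 counts.

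For rich spots, the ratio of Nfkbia in monocyte/macrophage-rich spots at day 1 was 1.87 with the richest 20% of spots. At day 3, totals without mitochondrial, haemoglobin and myofibre genes gave ratios in monocyte/macrophage-rich spots of 1.77 for Il1b, 1.25 for Il1r1, 1.29 for Il1rn and 1.38 for Nfkbia, and the richest 20% gave 3.23 for Il1rn there and 1.2 for Il1b in MSC-rich spots. The ratio changed direction for Tnfrsf1b in endothelial-rich spots at day 3 with the richest 5% (1.02), and with the reduced totals for Tnfrsf1a (0.945) and Nfkbia (0.997) in regenerating-muscle-rich spots at day 3 and Nfkbia in monocyte/macrophage-rich spots at day 7 (0.986). The causes were not tested. Depth limits Tnf and Il1a on every day, Il1b and Il1rn at day 0, and all pairs of genes in spots.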
